A study of Arabidopsis thaliana with 6 samples.

Results

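Purple acid phosphatases are metal-containing enzymes that release phosphate from organic esters at acid pH. The genes described here are the 10 rows of the deposited table with the gene identifiers of PAP1, PAP2, PAP10, PAP12, PAP17, PAP22, PAP23, PAP24, PAP25 and PAP26, of 32833 genes in all. RNA sequencing measured them in Arabidopsis thaliana, in total RNA of seedlings at an age of 8 days, with 3 phod2 libraries and 3 wild type (WT) libraries. The labels speak of HP or LP conditions without saying which of them a library had, so the growth condition of either group is unknown here. They name no ecotype or allele, nor the kind of change in phod2, nor whether seedlings were pooled. The title concerns LIP1p, a lipoyl synthase of plastids, and the phod2 columns carry the name LIP1. All fold changes are phod2 over WT.

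Plants short of phosphate make more acid phosphatase, some of it secreted to the root surface and the soil, some of it held in the vacuole, where it recycles phosphate from the cell's own compounds. The transcription factor PHR1 drives much of this response by binding a short palindrome, the P1BS element, in the promoters of its targets, and SPX proteins hold PHR1 back while phosphate is ample. By general knowledge of the family, 8 of the 10 genes belong to those whose transcripts rise under phosphate starvation (PAP1, PAP10, PAP12, PAP17, PAP22, PAP23, PAP24 and PAP25). The other 2, PAP2 and PAP26, keep a steady transcript level. The table annotates PAP1, PAP2 and PAP24 as probably inactive enzymes.

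The libraries held 17319308 to 22417595 counted reads. Libraries of one genotype differed from each other by a chi-square per degree of freedom of 1.57 to 2.07, and libraries of different genotypes by 21.67 to 25.72. LIP1P (AT5G08415) had 13.95, 14.23 and 12.92 FPKM (counts scaled to exon length and library total) in phod2 and 22.26, 20.91 and 23.18 FPKM in WT, a log2 fold change of -0.74 ± 0.06 (SE). Both shoot and root were present by their markers. The summed level of 6 leaf photosynthesis genes was 27491.0 to 27902.4 FPKM in phod2 and 26558.4 to 26753.1 FPKM in WT, that of 8 root hair genes 13.4 to 14.6 FPKM in phod2 and 41.2 to 47.0 FPKM in WT, and that of 9 root endodermis genes 42.9 to 45.8 FPKM in phod2 and 106.8 to 116.4 FPKM in WT. All 8 root hair genes and 7 of the 9 endodermis genes passed the test as lower in phod2, as did 24.6% of all tested genes. The other 2 endodermis genes, ESB1 (log2 fold change 0.65 ± 0.36 SE) and SCR (0.10 ± 0.05), had higher means in phod2 and did not pass. ESB1 shares 84.6% of its length with another counted gene, so its value is uncertain. None of these 17 root genes was at 0. In bulk RNA, fewer root cells of a type and less RNA per cell cannot be told apart.

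The promoters of the 4 members that passed the test are shown because the P1BS element was looked for in them. Each run is the 250 bases before the annotated start of the gene in TAIR10.1, 5′ to 3′ on the gene's own strand, and capitals mark an exact match to P1BS (GNATATNC, a palindrome, so that both strands are read at once).
PAP17, chr3:6089131-6089380, plus strand: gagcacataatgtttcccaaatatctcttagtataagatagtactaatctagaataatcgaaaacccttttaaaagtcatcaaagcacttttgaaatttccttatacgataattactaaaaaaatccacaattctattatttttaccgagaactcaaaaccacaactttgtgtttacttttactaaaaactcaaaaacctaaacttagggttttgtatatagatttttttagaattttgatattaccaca
PAP12, chr2:11623619-11623868, minus strand: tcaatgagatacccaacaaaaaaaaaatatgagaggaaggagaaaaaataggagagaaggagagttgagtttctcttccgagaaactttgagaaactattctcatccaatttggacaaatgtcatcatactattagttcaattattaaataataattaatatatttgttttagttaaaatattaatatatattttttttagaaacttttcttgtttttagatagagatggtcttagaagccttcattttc
PAP1, chr1:4718270-4718519, minus strand: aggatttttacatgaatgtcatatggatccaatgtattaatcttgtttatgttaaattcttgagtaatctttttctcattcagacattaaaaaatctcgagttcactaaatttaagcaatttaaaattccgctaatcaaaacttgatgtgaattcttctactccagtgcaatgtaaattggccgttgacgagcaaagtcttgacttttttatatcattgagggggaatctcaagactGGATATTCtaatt
PAP26, chr5:13111657-13111906, minus strand: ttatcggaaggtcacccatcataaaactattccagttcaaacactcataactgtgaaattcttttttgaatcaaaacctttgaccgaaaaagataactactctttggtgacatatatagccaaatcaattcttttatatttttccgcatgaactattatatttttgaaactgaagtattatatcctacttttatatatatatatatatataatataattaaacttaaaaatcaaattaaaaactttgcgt
Of these windows the one of PAP1 held a match, GGATATTC, whose first base lay at position -13 from the gene start. PAP12 had its match, GAATATCC, at position 32 after the start, inside the transcribed part. No exact match lay in the 1000 bases before PAP17, or in the 50 bases after its start.

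Further matches within 1000 bases of the start are shown with up to 20 bases on either side, capitals again marking the match. They are those of the 3 members that were close to 0 in the libraries, the distal ones of PAP1, PAP26 and PAP2, and the one of PAP8, a family gene outside the 10 whose level was lower in phod2.
PAP25, chr4:17175987-17176034, minus strand: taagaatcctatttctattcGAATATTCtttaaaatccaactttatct
PAP24, chr4:12814582-12814629, minus strand: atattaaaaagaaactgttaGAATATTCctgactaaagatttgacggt
PAP23, chr4:7958988-7959035, minus strand: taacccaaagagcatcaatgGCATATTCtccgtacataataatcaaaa
PAP1, chr1:4718720-4718767, minus strand: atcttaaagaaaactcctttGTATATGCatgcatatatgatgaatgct
PAP26, chr5:13112531-13112578, minus strand: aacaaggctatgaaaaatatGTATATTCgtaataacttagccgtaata
PAP2, chr1:4756539-4756586, minus strand: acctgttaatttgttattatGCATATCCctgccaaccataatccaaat
PAP8, chr2:399456-399503, minus strand: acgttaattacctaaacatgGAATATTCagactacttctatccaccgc
The first bases of these matches lay at positions -157 in PAP25, -153 in PAP24, -96 in PAP23, -478 in PAP1, -902 in PAP26, -910 in PAP2 and -145 in PAP8. In the window of 250 bases before to 50 after the start, 5 of the 10 members had a match, against 6.23% of 32546 nuclear genes of the table. In the 1000 bases before the start, 6 of the 10 had one, against 20.1%. Related genes held the element as well. In the shorter window it was found in 8 of the 19 other family genes (42.1%) and 8 of the 12 other phosphate-releasing genes (66.7%), and in the 1000 bases in 57.9% and 66.7% of them, so it was not particular to the 10. PAP17, with the largest change among the members, had none, and PAP23, PAP24 and PAP25, which were hardly detected, had one each close to the start. A match describes the letters of the window and is not evidence that a factor binds there.

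**Figure D1:**
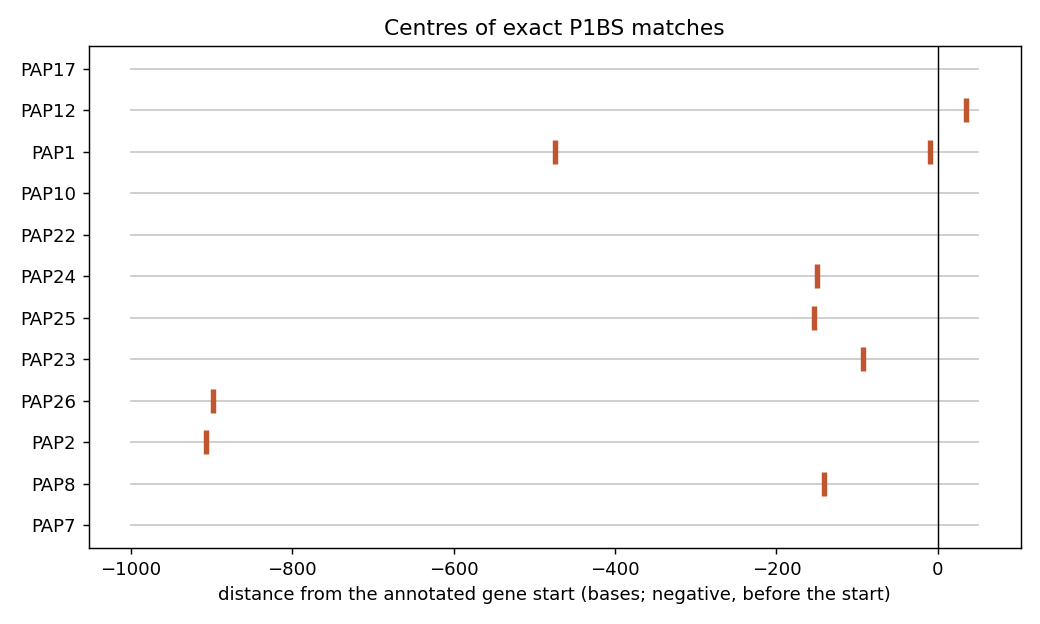
Positions of exact P1BS matches (bars, centre of the match) from 1000 bases before to 50 bases after the annotated gene start, in bases, for the 10 members and for PAP8 and PAP7. PAP17, PAP10, PAP22 and PAP7 have no match in this window, and PAP23, PAP24 and PAP25 have one within 157 bases of the start.

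Of the 10 members, 7 had enough counts to be tested. PAP17, PAP12 and PAP1 rose in phod2, PAP26 fell, and PAP10, PAP22 and PAP2 did not pass the test, at a Benjamini-Hochberg adjusted p of 0.05 over 20169 genes in the quasi-likelihood test of edgeR. Across all genes tested, 20.9% passed as higher and 24.6% as lower, 45.5% in all, so the 4 of 7 members past the threshold stand near the background. PAP17 was the 1 member past the rule of the study, an adjusted p of 0.05 and at least 2-fold, which 1.79% of the tested genes passed as higher and 5.72% as lower (7.51% in all). The median log2 fold change of the 7 members was 0.12, and that of all tested genes was 0.01.

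PAP17 encodes a small purple acid phosphatase that is among the classic transcripts of phosphate starvation. Its gene (AT3G17790, chromosome 3, positions 6089381 to 6091231, plus strand) has 3 exons. Its level was 29.79, 27.92 and 27.35 FPKM in the phod2 libraries and 2.50, 2.30 and 2.87 FPKM in the WT libraries. Every phod2 library lay above every WT library. Such a separation of the groups, in counts scaled to library size, was found for 54.3% of all tested genes in either direction. The means were 28.4 ± 1.28 FPKM in phod2 and 2.56 ± 0.289 FPKM in WT (SD, n = 3 each), a 10.7-fold difference (95% interval 9.53 to 12.0, adjusted p = 6.19e-41). By its log2 fold change of 3.42 ± 0.08 (SE) PAP17 ranked 24 from the top among the tested genes. Its raw counts were 889, 897 and 950 in phod2 and 93, 66 and 103 in WT. Of its length 6.6% (122 bases) overlaps the gene AT3G17800 on the opposite strand, and reads there cannot be assigned with the use of strand unknown.

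PAP12 encodes a phosphatase that phosphate-starved roots secrete. Its gene (AT2G27190, chromosome 2, positions 11621222 to 11623618, minus strand) has 7 exons. Its level was 39.41, 37.77 and 38.25 FPKM in phod2 and 22.00, 20.84 and 22.40 FPKM in WT, again with no overlap. The fold was 1.72 (95% interval 1.61 to 1.83, log2 0.78 ± 0.05 SE, adjusted p = 1.35e-21). The change was short of 2-fold, at mean levels of 38.5 ± 0.843 FPKM in phod2 and 21.7 ± 0.810 FPKM in WT (SD, n = 3 each).

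PAP1 (AT1G13750, chromosome 1, positions 4715394 to 4718269, minus strand) has 10 exons and is annotated as coding for a probably inactive enzyme. Its level was 4.75, 5.63 and 5.21 FPKM in phod2 and 2.80, 2.70 and 3.47 FPKM in WT. The groups did not overlap. The fold was 1.68 (95% interval 1.44 to 1.97, log2 0.75 ± 0.11 SE, adjusted p = 1.4e-07).

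PAP10 encodes a phosphatase bound to the root surface, where activity stains show it in starved seedlings. Its gene (AT2G16430, chromosome 2, positions 7120372 to 7123079, minus strand) has 8 exons. Its level was 16.45, 15.73 and 15.14 FPKM in phod2 and 13.99, 14.29 and 13.87 FPKM in WT. All phod2 libraries lay above all WT libraries, yet the step was small, with a fold of 1.09 (95% interval 1.00 to 1.18, log2 0.12 ± 0.06 SE) that did not pass over all genes (adjusted p = 0.0903). The call depended on the scaling. The gene overlaps AT2G06625 on the opposite strand over 6.5% of its length. Without TMM, on library totals alone, the log2 fold change was 0.17 and passed (adjusted p = 0.0208), as it did in limma on log2 FPKM (adjusted p = 0.0269 and 0.0264 with pseudocounts of 1 and 0.1).

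PAP22 (AT3G52820, chromosome 3, positions 19573916 to 19577141, minus strand) had 0.70, 0.48 and 0.60 FPKM in phod2 and 0.81, 0.73 and 0.99 FPKM in WT, on counts of 17 to 23 in phod2 and 23 to 39 in WT. The phod2 values lay below the WT values, opposite in direction to PAP17, PAP12 and PAP1, but the log2 fold change of -0.55 ± 0.28 (SE) did not pass (adjusted p = 0.0988). The interval of the fold, 0.467 to 0.994, is a normal one and ends just below no change, while the unadjusted p in edgeR was 0.0511. The size of the fold is uncertain at this depth.

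PAP23, PAP24 and PAP25 had too few counts to be tested. PAP25, a phosphatase of the cell wall, had counts of 0, 1 and 3 in phod2 and 0 in each WT library. PAP23 had 0, 0 and 1 count in phod2 and 0 in each WT library. A library had to exceed 3 counts, which is 0.0955 to 0.124 FPKM for PAP25 and 0.0917 to 0.119 FPKM for PAP23, to stand above the limit that a count of 0 allows, and none did, so no difference was detectable at this depth. PAP24 had counts of 4, 4 and 7 in phod2 and 5, 4 and 9 in WT, or 0.127 ± 0.0379 FPKM in phod2 and 0.143 ± 0.0577 FPKM in WT (SD, n = 3 each), and the groups overlapped. Thus 3 of the 8 starvation-induced members were at or near 0 in phod2 as well as in WT. Of all 32833 genes, 12664 were likewise left out of the test. Without the filter on low counts, edgeR gave adjusted p of 0.183 for PAP25, 0.551 for PAP23 and 0.824 for PAP24. PAP24 shares 81.4% identity with PAP27 over 88.4% of its transcript, and PAP25 shares 85.4% with PAP6 over 98.0%, and PAP24 overlaps AT4G24880 on the opposite strand over 12.6% of its length, so counts this low are uncertain.

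The steady-transcript members changed little. PAP26 encodes the main acid phosphatase of the vacuole, which starved plants also secrete, and whose activity is known to rise under starvation without a matching rise of its transcript. Its gene (AT5G34850, chromosome 5, positions 13107626 to 13111656, minus strand) has 9 exons. Its level was 86.16, 88.34 and 88.58 FPKM in phod2 and 95.69, 95.23 and 95.73 FPKM in WT. The groups did not overlap, and the fold of 0.892 (95% interval 0.859 to 0.926, log2 -0.16 ± 0.03 SE) passed the test (adjusted p = 8.93e-07) on 13220 counts in phod2 and 15152 in WT. PAP2, which is anchored in the outer membranes of chloroplasts and mitochondria, had 13.35, 12.36 and 14.21 FPKM in phod2 and 14.17, 12.84 and 13.43 FPKM in WT (AT1G13900, chromosome 1, positions 4753099 to 4755656, minus strand, 2 exons). These ranges overlapped, and the fold of 0.958 (95% interval 0.884 to 1.04, adjusted p = 0.417) did not pass.

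**Figure D2:**
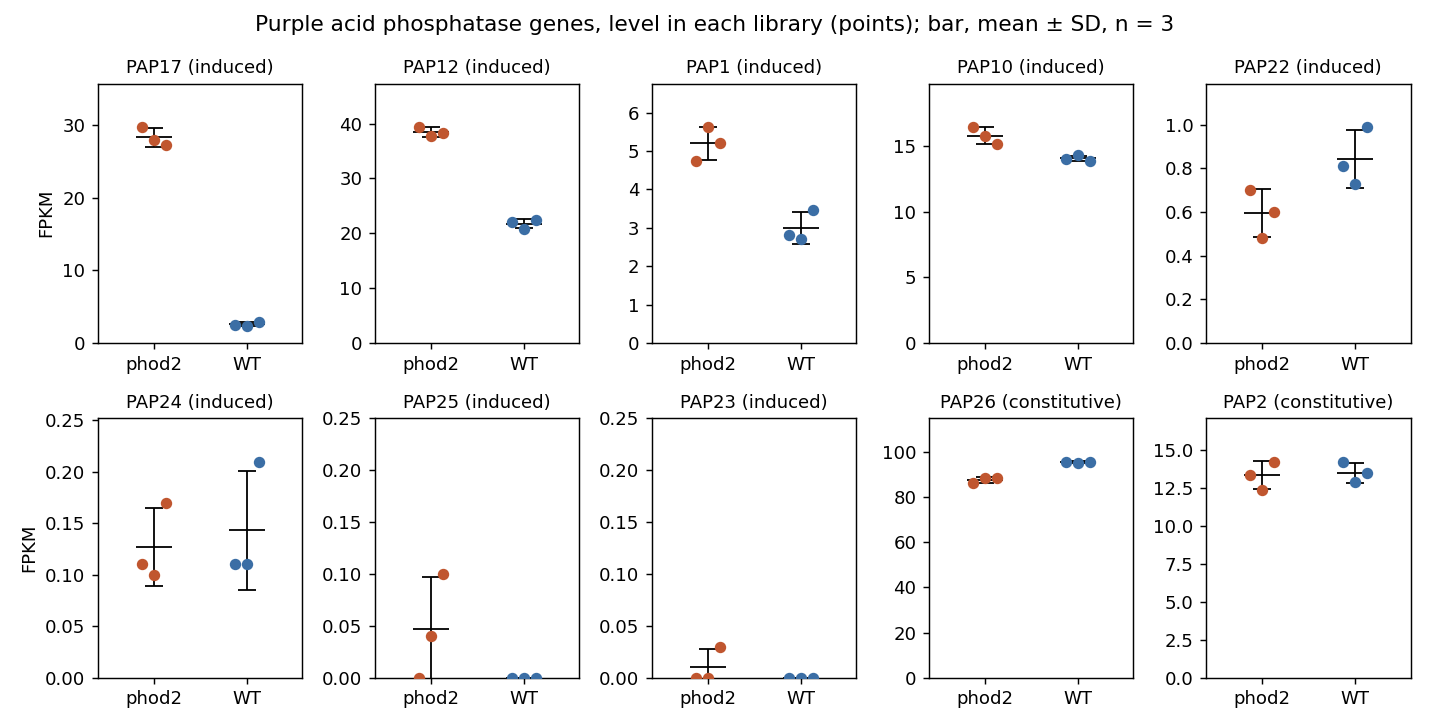
FPKM of each of the 10 members in every phod2 library (left in each panel) and WT library (right), with a separate axis from 0 for each gene, points for libraries and a bar for the mean ± SD (n = 3). PAP17, PAP12 and PAP1 sit higher in phod2, PAP26 slightly lower, and PAP23, PAP24 and PAP25 stay at or below 0.21 FPKM in every library.

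By class, 3 of the 8 starvation-induced members rose, 0 fell, 2 did not pass and 3 could not be tested, and 0 of the tested induced members had an unadjusted p under 0.05 as lower in edgeR or fell in DESeq2. Of the 2 steady members, 1 fell and 1 did not pass. Of all tested genes, 20.9% passed as higher and 24.6% as lower. The median log2 fold change was 0.75 over the 5 tested induced members, -0.11 over the 2 steady ones and 0.01 over all tested genes. Within the induced class the log2 fold changes ran from -0.55 for PAP22 to 3.42 for PAP17. The classes come from general knowledge, and no test of their difference was made.

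In absolute terms PAP26 led the 10 members in both genotypes and PAP12 came next. In phod2 the order was PAP26 with 87.7 FPKM, PAP12 with 38.5, PAP17 with 28.4, PAP10 with 15.8, PAP2 with 13.3, PAP1 with 5.20 and PAP22 with 0.593 FPKM, and neighbours in this order had no overlapping libraries. In WT the order was PAP26 with 95.6 FPKM, PAP12 with 21.7, PAP10 with 14.0, PAP2 with 13.5, PAP1 with 2.99, PAP17 with 2.56 and PAP22 with 0.843 FPKM. There PAP10 and PAP2 overlapped, as did PAP1 and PAP17. PAP17 thus held place 3 of 10 in phod2 and place 6 of 10 in WT. The summed level of the 10 members was 189.6 ± 1.15 FPKM in phod2 and 151.4 ± 2.10 FPKM in WT (SD, n = 3 each).

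The other 19 genes of the family, which were not sorted into the 2 classes, were read beside these members. Of the 19, 12 were tested. Where 20.9% of all tested genes passed as higher and 24.6% as lower, 2 of these 12 rose, 4 fell and 6 did not pass. The median log2 fold change of the 12 was -0.06. None was higher by 2-fold in edgeR or in DESeq2, where 2 had an unadjusted p under 0.05 as higher in edgeR. PAP29, annotated as probably inactive, rose to 17.7 ± 1.46 FPKM in phod2, against 13.1 ± 0.335 FPKM in WT (SD, n = 3 each, log2 0.40 ± 0.07 SE, adjusted p = 2.21e-06). PAP18 rose by a log2 fold change of 0.29 ± 0.07 (adjusted p = 0.000446). Neither change was of the size of that of PAP17.

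PAP7 and PAP8, small phosphatases that belong with PAP17 to the low-molecular-weight branch of the family, changed in the opposite direction to PAP17. PAP3 and PAP4, also outside the members, did not pass (log2 fold change 0.10 ± 0.05 SE, adjusted p = 0.122, and -0.04 ± 0.04, adjusted p = 0.339). The mean level of PAP4 was 61.2 FPKM in phod2 and 61.3 FPKM in WT. PAP7 had 1.82, 1.65 and 1.49 FPKM in phod2 and 7.85, 6.26 and 6.42 FPKM in WT (log2 fold change -2.10 ± 0.15 SE, adjusted p = 1.6e-18). PAP8 had 5.24, 5.40 and 5.68 FPKM in phod2 and 14.26, 15.14 and 12.20 FPKM in WT (-1.38 ± 0.09, adjusted p = 1.39e-20). Both fell past 2-fold with no overlap between the groups. In the same libraries the median log2 fold change was -1.76 for the root hair list and -1.96 for the endodermis list, and their part in these 2 falls was not tested. PAP15, a phytase, fell by 0.55 ± 0.12 on the log2 scale (adjusted p = 0.000137), and PAP9, annotated as probably inactive, fell by 0.49 ± 0.12 (adjusted p = 0.000376).

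The 7 family genes left out of the test were at or near 0. PAP5, PAP11, PAP19 and PAP21 had 0 counts in all libraries, PAP6 had 1 count in a single WT library, and PAP20 had 20 counts in phod2 and 21 in WT, summed over 3 libraries each. PAP14, named here after its values were seen, had 4, 11 and 14 counts in phod2 and 5, 1 and 3 counts in WT, and the groups overlapped. When every gene with a count was tested, edgeR called PAP14 higher (log2 fold change 1.68, adjusted p = 0.0300) and DESeq2 did not (1.73, adjusted p = 0.0988), so its direction rests on few reads.

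**Figure D3:**
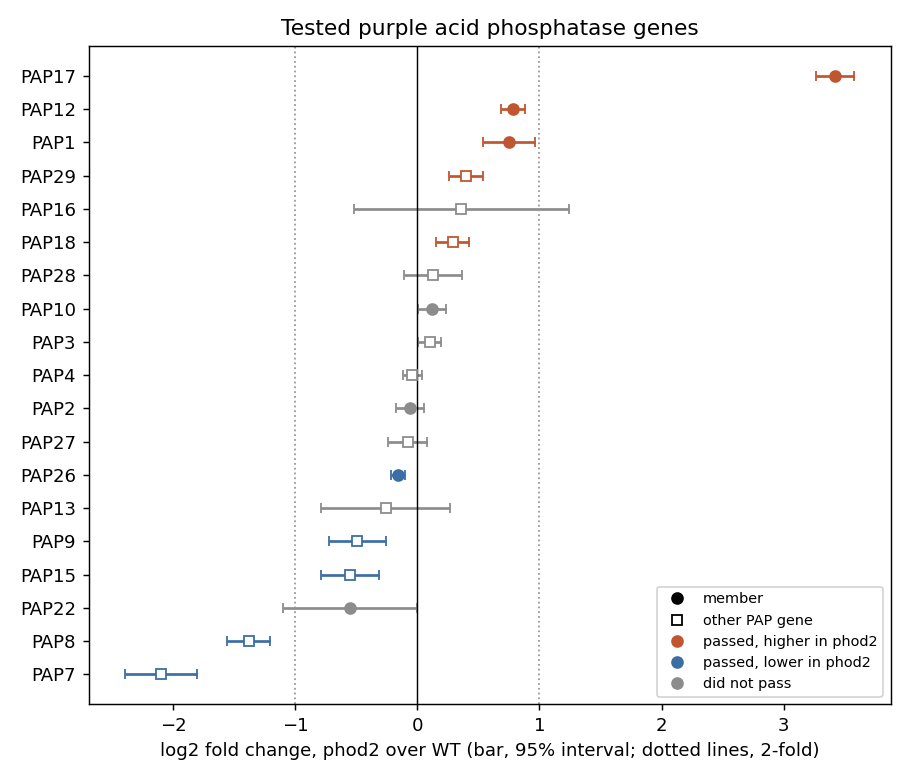
Log2 fold change of phod2 over WT for the 19 purple acid phosphatase genes that were tested, with the 95% interval as error bar, filled circles for the members and open squares for the other genes of the family. PAP17 stands alone at 3.42, PAP12 and PAP1 lie at 0.78 and 0.75, and PAP7 and PAP8 lie at -2.10 and -1.38.

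Of the 29 family genes 19 were tested, and of these 5 rose, 5 fell and 9 did not pass. These counts stand near the shares of all tested genes, 20.9% higher and 24.6% lower. The summed level of all 29 genes was 335.2 ± 1.30 FPKM in phod2 and 302.4 ± 4.25 FPKM in WT (SD, n = 3 each). Its range was 333.7 to 336.0 FPKM in phod2 and 298.8 to 307.1 FPKM in WT. The make-up of that sum moved more than its size. PAP26 was 26.2% ± 0.454 of the sum in phod2 and 31.6% ± 0.382 in WT, PAP17 was 8.46% ± 0.370 in phod2 and 0.845% ± 0.0951 in WT, and PAP12 was 11.5% ± 0.219 in phod2 and 7.19% ± 0.229 in WT (SD, n = 3 each). PAP8 fell to 1.62% ± 0.0659 of the sum in phod2, against 4.59% ± 0.512 in WT.

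**Figure D4:**
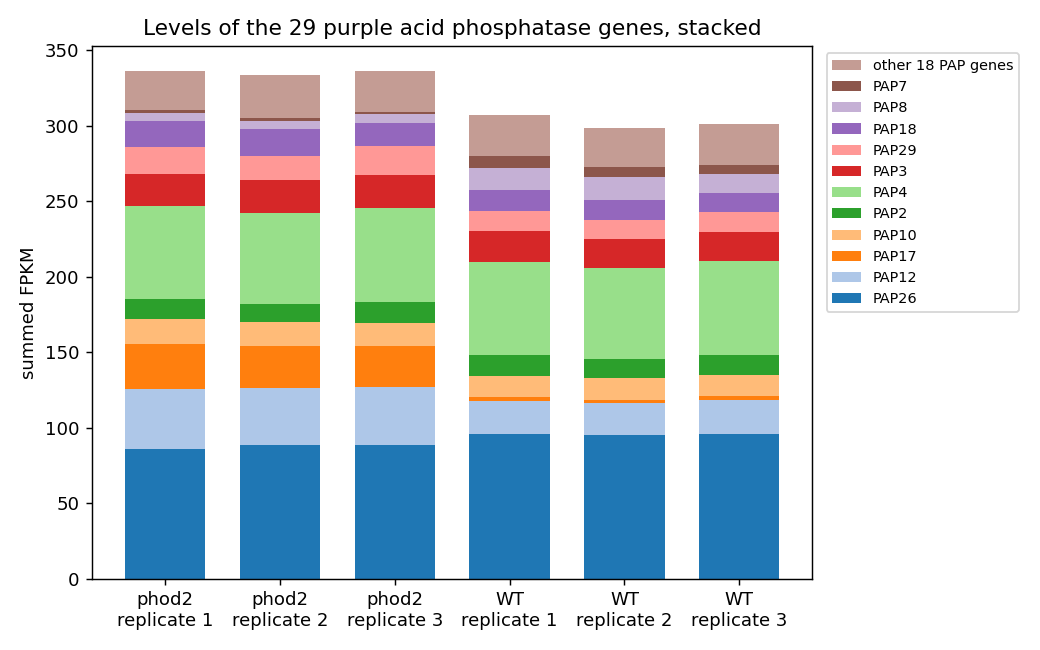
Summed FPKM of the 29 purple acid phosphatase genes in each library, stacked by gene, with phod2 libraries on the left and WT libraries on the right. The PAP17 layer is 27.35 to 29.79 FPKM in phod2 and 2.30 to 2.87 FPKM in WT, and PAP26 is the thickest layer in all 6 libraries.

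Of 18 regulators of the phosphate response, 5 rose, 6 fell and 7 did not pass, with a median log2 fold change of 0.00. These counts stand near the shares of all tested genes, 20.9% higher and 24.6% lower. DESeq2 called 5 regulators higher and 4 lower. Over all genes DESeq2 called 3070 higher and 4060 lower, against 4214 and 4958 in edgeR. Past 2-fold, the count of lower regulators stood near its share as well, and the count of higher ones did not. In edgeR and in DESeq2, 4 regulators were higher and 1 was lower by 2-fold. Of all tested genes, 1.79% were higher and 5.72% lower by that rule. The gene SPX1, whose product binds PHR1 when phosphate is ample, had 47.23, 43.22 and 45.95 FPKM in phod2 and 5.29, 5.46 and 4.87 FPKM in WT (log2 3.09 ± 0.07 SE, beside 3.42 for PAP17). IPS1, a non-coding target mimic, rose by 3.27 ± 0.27 and SPX2 by 0.81 ± 0.08 on the log2 scale. WRKY75, a transcription factor known to act in starvation responses, fell by 1.71 ± 0.22. PHR1, named here after its values were seen, had 29.34, 28.30 and 29.11 FPKM in phod2 and 26.90, 30.06 and 28.52 FPKM in WT, and its groups overlapped (adjusted p = 0.806).

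Among 12 other genes whose products release phosphate, 10 were tested, 4 rose, 2 fell and 4 did not pass. Past 2-fold, 3 were higher and 1 was lower. Of all tested genes, 20.9% passed as higher and 24.6% as lower, and 1.79% and 5.72% did so past 2-fold. Those that fell were BFN1 (log2 fold change -0.71 ± 0.14 SE) and GDPD3 (-1.20 ± 0.37, on 28 summed counts in phod2 and 66 in WT). The pyrophosphatase gene PPsPase1 rose by 3.92 ± 0.16, the glycerophosphodiester phosphodiesterase gene GDPD1 by 3.14 ± 0.05 and the phosphatase gene PECP1 by 2.67 ± 0.26 on the log2 scale (SE), while GDPD2 rose by 0.33 ± 0.03. The gene of the lectin GAL1, which is known to bind PAP26, fell by 0.35 ± 0.03 on the log2 scale to 156.19, 160.44 and 160.70 FPKM in phod2, against 204.17, 194.75 and 193.45 FPKM in WT. The related GAL2 did not pass (log2 -0.18 ± 0.13 SE, adjusted p = 0.262). GDPD1 shares 36.9% of its length with another counted gene, so its value is uncertain.

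Acid phosphatases of another fold, the HAD type, were counted beside the purple ones. Of 10 genes, 2 rose, 5 fell and 3 did not pass, with a median log2 fold change of -0.13, where 20.9% of all tested genes passed as higher and 24.6% as lower. None was higher by 2-fold in edgeR or DESeq2, with 2 at an unadjusted p under 0.05 as higher in edgeR. AT4G29270, annotated as acid phosphatase-like, had 9.76, 9.32 and 10.84 FPKM in phod2 and 45.51, 45.80 and 42.53 FPKM in WT (log2 -2.20 ± 0.07 SE). The storage protein genes VSP1 and VSP2, which belong to this type, moved apart, VSP1 with a log2 fold change of -1.59 ± 0.09 and VSP2 of 0.56 ± 0.06. AT5G44020, with the highest level of the list, fell to 597.54, 583.22 and 584.44 FPKM in phod2, against 630.71, 651.27 and 650.53 FPKM in WT.

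Acid phosphatases are also known from ageing leaves, so senescence markers were read beside them. Of 5 such genes 3 were tested, and SEN1 and ORE1 rose by 0.93 ± 0.03 and 0.84 ± 0.20 on the log2 scale (SE), while NYE1, of chlorophyll breakdown, did not pass (0.10 ± 0.11, adjusted p = 0.444). Of all tested genes, 20.9% passed as higher, and no gene of this list was called past 2-fold. SAG12, the marker most specific to senescence, was at 0 counts in all libraries. SAG13, also not tested, had 24 summed counts in phod2 and 22 in WT. The list's summed level was 219.8 to 227.8 FPKM in phod2 and 113.9 to 120.6 FPKM in WT. Most of that sum was SEN1, with a mean of 215 FPKM in phod2 and 109 FPKM in WT. The list's part in the changes of the phosphatases was not tested. Leaf photosynthesis genes changed by at most 0.36 on the log2 scale, which is the fall of LHCB2.1.

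**Figure D5:**
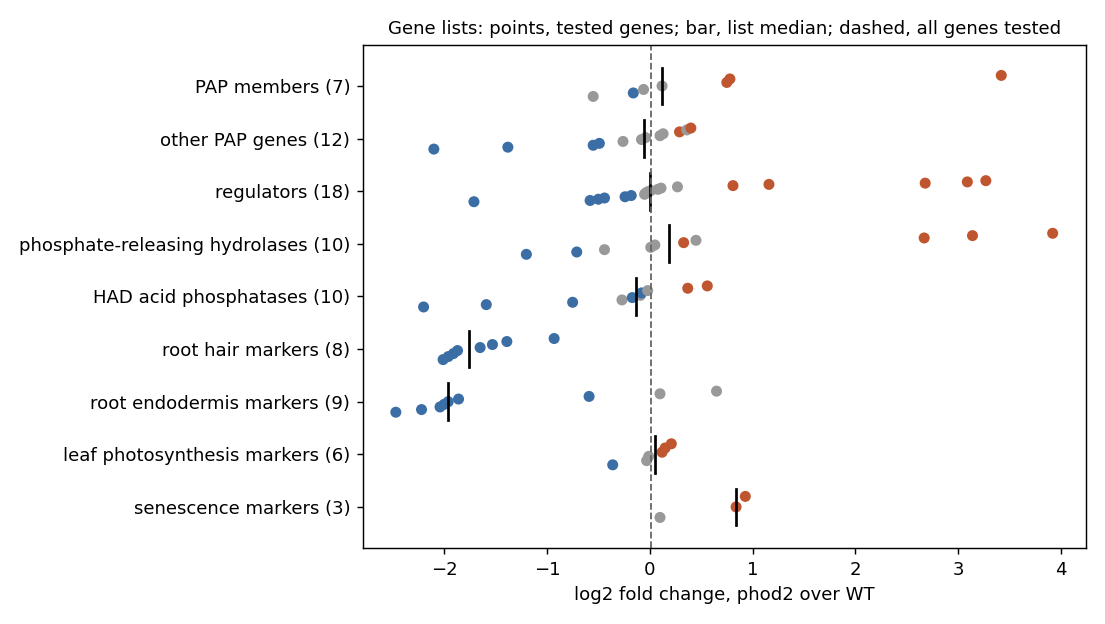
Log2 fold change of phod2 over WT for the tested genes of each list (number tested in brackets), as points in red where they passed as higher, blue where they passed as lower and grey where they did not pass, with a bar at the list's median and a dashed line at the median of all tested genes. The points of the members reach 3.42, and the medians of the root hair and endodermis lists lie at -1.76 and -1.96.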

How the data were processed

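The authors deposited unnormalized whole-number counts per gene, and FPKM, for 6 libraries. Recomputed from count, exon length and library total, FPKM differed from the deposited values by at most 0.005. Which aligner and counter made them, and whether strand was used, is not given in the sources used here. Per the submitters' processing notes the build was mm10, a mouse genome, but of 32548 identifiers found in TAIR10.1, 32532 (99.95%) had the same start and end there, and so had all 10 members. Promoter sequences were read from the RefSeq genome of TAIR10.1.

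Counts were tested in edgeR 4.0.16 (R 4.3.3) with filterByExpr, TMM and the 2-sided quasi-likelihood test, with genotype as the only term. SE is the absolute log2 fold change over the square root of F, and 95% intervals are normal ones from it. Alternatives used DESeq2 1.42.0 and limma 3.58.1. On counts simulated for phod2 against WT (20015 genes tested), 90.8% of genes changed 2-fold and 74.2% of genes changed 1.5-fold were recovered by the adjusted p, with 4.44% false calls. Only a small part of the genes was changed there, in random directions. In the data 45.5% of the tested genes passed, so these rates need not hold for the data. The labels call the samples biological replicates without naming separate plants or batches, so p-values measure spread between libraries, which may be technical. Same-numbered libraries did not deviate together (correlations -0.062 to 0.004). Transcripts were compared with BLAST 2.17.0, figures were drawn with matplotlib 3.10.9, and floors of 3 counts cover counting error only.

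Members and lists were chosen with earlier results of these data known. Named genes are LIP1P, the 10 members, each other family gene past the adjusted p and up to 4 genes of each list with the lowest adjusted p. Other genes are named outside this rule, with values known: PHR1, SAG12, SAG13, PAP3, PAP4, BFN1, GDPD3, ESB1, SCR and the untested family genes.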

Additional observations from a re-analysis of the deposited data

How the results depend on the processing

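The counts of members that passed (3 higher, 1 lower, 1 higher by 2-fold, 0 lower by 2-fold) were the same under DESeq2, RLE size factors, no filter, a filter of 1 FPKM, robust shrinkage and each library left out in turn. Library totals and both limma fits added PAP10, giving 4 higher. Over all alternatives the log2 fold change ran from 3.05 to 3.51 for PAP17, 0.75 to 0.82 for PAP12, 0.64 to 0.88 for PAP1 and -0.17 to -0.12 for PAP26. Against a 2-fold change (glmTreat) 147 genes were called higher and 596 lower, and by limma on log2(FPKM + 1) 141 and 491, against 362 and 1153 in edgeR. By glmTreat PAP17 was the 1 member called, and PAP12, PAP1 and PAP26 had adjusted p of 1.0. The limma fits also changed the unit and the filter (0.1 FPKM or more in 3 libraries). PAP17 remained called in all of them. With the replicate number as a block, the members gave 3 higher and 1 lower as before, and PAP10 an adjusted p of 0.102. Without WT replicate 1, 4 of the other family genes passed as higher, with PAP14 (log2 fold change 2.17) and PAP3 added. PAP14 was also the 1 family gene outside the members called higher by 2-fold there, without phod2 replicate 1 and without the filter on low counts. DESeq2 called 3 HAD acid phosphatase genes lower, against 5 in edgeR. PHR1, not past the threshold in any fit, had 0.02 on library totals, in both limma fits and without WT replicate 2, and ran from -0.06 to 0.02 with single libraries left out. The cause was not tested. Depth limits PAP22 to PAP25, which had at most 39 counts in a library.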
